A study of Rattus norvegicus with 6 samples.

Results

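The 9 genes described here are immediate early genes, taken by symbol from a deposited count table of 34335 genes. They are the AP-1 subunit genes Fos, Fosb, Jun and Junb, the zinc finger gene Egr1, the nuclear receptor gene Nr4a1, and Ier2, Arc and Npas4. All 9 symbols were found, and all 9 passed the filter on low counts, which left 18571 genes to test. RNA was sequenced from whole retinas of wild-type BN rats, an inbred pigmented strain, after 2 µL had been injected into the vitreous. The DMP group (3 libraries) received the cationic micelle of that name at 10 mg/mL in water, and the saline group (3 libraries) received saline, so the vehicle also differed between the groups. The sources used here do not give the age of the rats, the time between injection and collection, or what the library numbers 30, 31 and 33 mark. They do not say either that each library was a separate animal, and p-values therefore cover the spread among these libraries only, which may be of technical origin.

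Immediate early genes are transcribed within minutes of a stimulus, such as synaptic activity, growth factors, injury or light, without new protein being made first. Kinases of the MAP kinase and calcium pathways act on factors already bound at their promoters, among them serum response factor at CArG boxes and CREB at cyclic AMP response elements. Their transcripts decay quickly, so a level in a tissue reflects recent rather than lasting stimulation. In the retina, light and injury are known inducers of several of them.

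None of the 9 genes passed the threshold between DMP and saline retinas in the quasi-likelihood test of edgeR, in which 0.0215% of all genes tested did so. Jun, Junb, Fosb, Nr4a1 and Ier2 were even across libraries, the highest of the 6 libraries being at most 1.21 times the lowest, and 7 of the 9 estimates were within 20% of no change. Egr1 stood out by its spread among the libraries of each group. Its levels were 44.4, 18.8 and 42.5 CPM (counts scaled to library size) in DMP retinas 30, 31 and 33, against 34.2, 10.3 and 23.8 CPM in saline retinas 30, 31 and 33.

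Libraries held 47842234 to 52529314 counts in the DMP group and 50900221 to 53255925 in the saline group. Genes at a count of 4 (673 to 741 per library) outnumbered those at 3 (301 to 325), and genes at 8 (313 to 370) those at 7 (212 to 233), so a count of about 4 may stand for a single fragment. The summed level of 9 rod and cone markers was 55740 to 58781 CPM in DMP and 55973 to 59665 CPM in saline, with no marker at 0, as in the labelled tissue. DMP 30 stood apart on the leading principal component of all genes, at 53.0, where the other 5 libraries lay between -23.4 and 7.01. Markers of some other cell types also differed in level between the groups, though 0 of them passed the adjusted threshold in edgeR. The summed level of 11 microglia and macrophage markers was 185 to 244 CPM in DMP and 138 to 177 CPM in saline, with 7 of the 11 at an unadjusted edgeR p under 0.05. That of 7 fibroblast and scleral markers was 19.5 to 49.0 CPM in DMP and 73.3 to 81.9 CPM in saline, and 5 of the 7 were under that p. Pigment epithelium and melanocyte markers (8 genes) summed to 42.4 to 78.5 CPM in DMP and 57.0 to 112.8 CPM in saline, with 4 of the 8 under that p and a median log2 fold change of -0.65. Lens markers (8 genes) summed to 6.00 to 37.2 CPM in DMP and 18.4 to 40.6 CPM in saline, with 3 of the 7 tested under that p and a median of -0.62. No gene of these 4 lists was at 0 in all libraries. The 18S ribosomal RNA gene Rn18s took 0.0439% to 0.159% of counts in DMP and 0.0121% to 0.0338% in saline. The part of these differences in the values of the immediate early genes was not tested. In whole retina, fewer cells of a type and less RNA per cell cannot be told apart.

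Egr1 encodes a zinc finger transcription factor whose gene is induced by growth factors, depolarization and, in the retina, by light. It lies on chromosome 18 from 26463333 to 26465531 (mRatBN7.2, plus strand). Its proximal promoter is shown because it holds elements through which immediate early genes respond, together with those of Nr4a1 and Ier2, whose levels varied little here. The sequences are the 250 bases before the RefSeq start of each gene, on the strand of the gene, in build GRCr8 (chr18:26736828-26737077 for Egr1, chr7:134259888-134260137 for Nr4a1 and chr19:40399123-40399372 for Ier2, all on the plus strand). Capitals mark CArG boxes, the core TGACG of the cyclic AMP response element on either strand (CGTCA when read from the other strand), and the full element TGACGTCA.
Egr1: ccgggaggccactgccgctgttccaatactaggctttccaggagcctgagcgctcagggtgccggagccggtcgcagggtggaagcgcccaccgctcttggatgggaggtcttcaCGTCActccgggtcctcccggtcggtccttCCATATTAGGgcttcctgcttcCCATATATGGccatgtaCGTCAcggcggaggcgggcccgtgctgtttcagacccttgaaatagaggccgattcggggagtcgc
Nr4a1: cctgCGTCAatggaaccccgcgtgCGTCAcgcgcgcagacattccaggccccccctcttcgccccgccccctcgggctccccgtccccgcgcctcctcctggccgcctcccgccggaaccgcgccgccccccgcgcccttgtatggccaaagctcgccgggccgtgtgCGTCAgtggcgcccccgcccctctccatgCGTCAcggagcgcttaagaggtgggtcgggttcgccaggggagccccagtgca
Ier2: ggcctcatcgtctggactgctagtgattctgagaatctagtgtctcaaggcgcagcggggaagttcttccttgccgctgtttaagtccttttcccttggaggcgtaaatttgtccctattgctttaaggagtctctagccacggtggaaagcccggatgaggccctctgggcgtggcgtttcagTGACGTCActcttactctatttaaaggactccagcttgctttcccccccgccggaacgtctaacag

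The Egr1 window held 2 CArG boxes, at 105 and 83 bases before the start, and 2 TGACG cores. Nr4a1 held 4 TGACG cores and no CArG box. Ier2 held a complete TGACGTCA, at 66 bases before the start, whose letters contain TGACG on both strands. Promoters were matched for 6 of the 9 genes (Egr1, Nr4a1, Ier2, Junb, Fosb and Npas4), and not for Fos, Jun and Arc. The search covered both strands of 300 bases, 250 before and 50 after the start. A CArG box was found in 1 of the 6, against 1.64% of all 33469 promoters of the table, and TGACGTCA in 1 of the 6, against 1.83%. TGACG was found in 4 of the 6 (Egr1, Nr4a1, Ier2 and Junb), against 21.2%. TATAAA was found in Junb and Fosb, against 14.2% of all, and GGGCGG, the GC box, in Nr4a1, which had 3, against 33.1%. The AP-1 site TGANTCA (7.33% of all promoters) and the Egr site GCGTGGGCG (0.544%) were in none of the 6. These matches describe letters in the window and do not show binding.

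**Figure D1:**
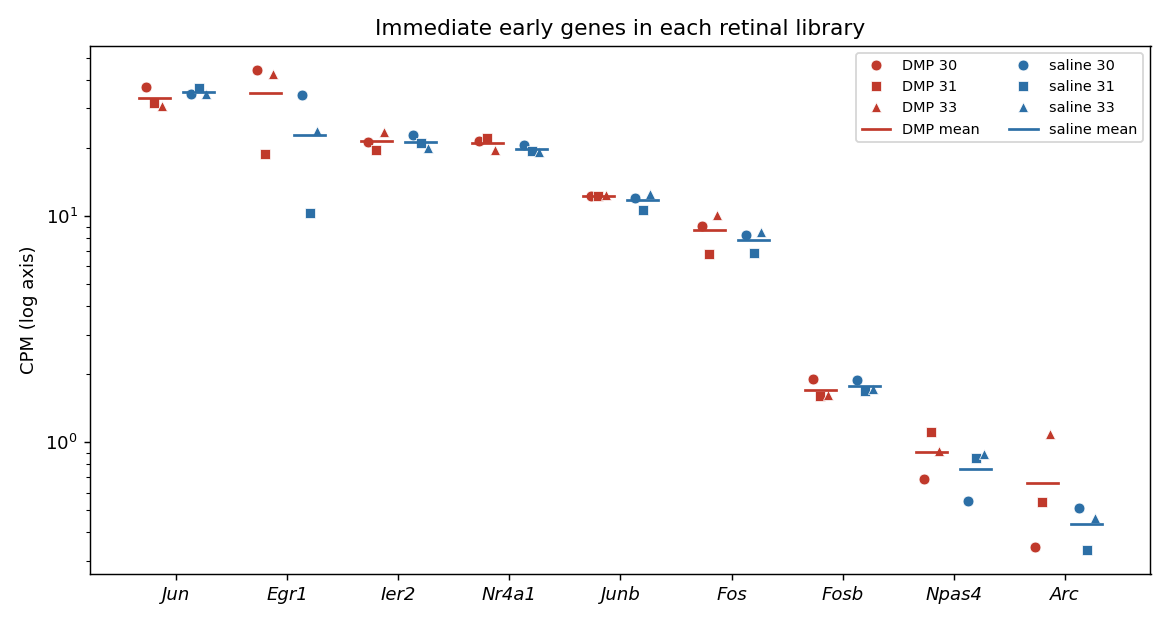
Level of each immediate early gene in CPM (log axis) in every library, DMP in red and saline in blue, with the shape giving the library number and a line at the group mean. Egr1 runs from 10.3 to 44.4 CPM, whereas Jun, Ier2, Nr4a1, Junb and Fosb keep within narrow ranges.

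Egr1 averaged 35.24 ± 14.23 CPM in DMP and 22.80 ± 11.97 CPM in saline (mean ± SD, n = 3 each). The groups overlapped, since DMP 31 lay below both saline 30 and saline 33. The log2 fold change was 0.63 (SE 0.38, 95% interval -0.20 to 1.46, edgeR Benjamini-Hochberg adjusted p = 0.9998), which leaves room for a fold between 0.872 and 2.75. Because edgeR draws the spread of a gene towards that of other genes, this interval may be too narrow for Egr1. An exact two-sided permutation test of the 3 against 3 values gave p = 0.4, where the smallest possible is 0.1. In both groups the library numbered 31 was the lowest. Single libraries moved the estimate widely. It was 0.28 without saline 31 and 1.04 without saline 30, and the lowest adjusted p in edgeR with any 1 library left out was 0.751.

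The spread of Egr1 was far above that of genes of similar level. Its SD of log2 CPM within groups was 0.79, against a median of 0.10 among the 5175 tested genes within 1 log2 unit of its mean level, and 99.8% of these had a smaller SD. Only 9 of them had a larger one. Those 9 were LOC120100609, F5, Optc, Fbln1, Spata6l, Hpx, Ltbp2, Camk4 and Rfx3, named after their values were seen. For Camk4, a calcium-dependent kinase that acts on CREB, a single library accounted for it, since saline 30 had 8.41 CPM and the other 5 libraries 40.7 to 43.5. In Egr1, by contrast, 3 libraries lay above 34 CPM and the lowest 2 came from different groups. The highest Egr1 value was 2.36 times the lowest within DMP and 3.31 times the lowest within saline.

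**Figure D2:**
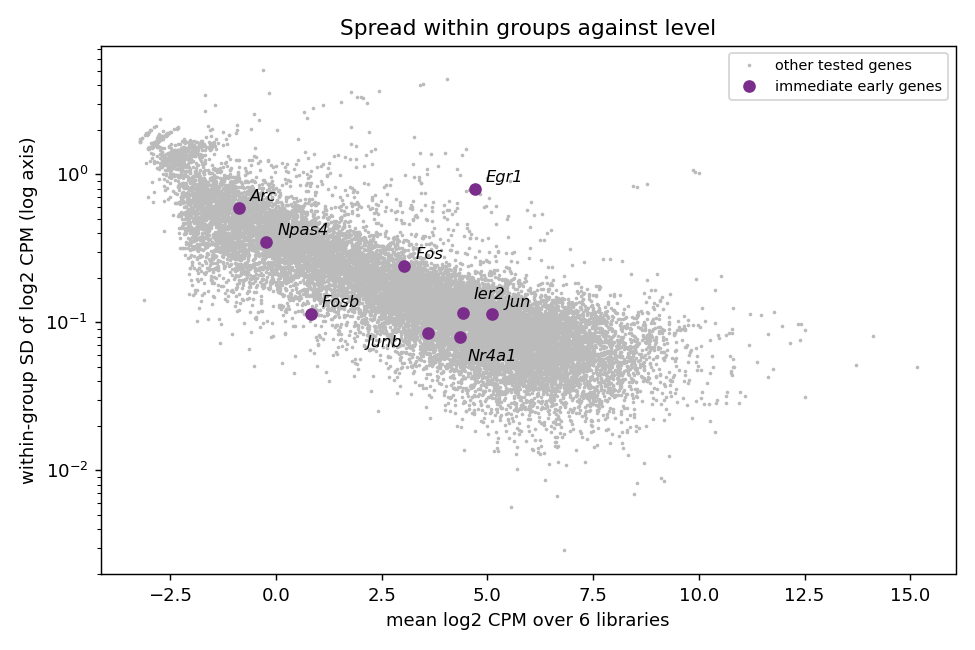
Within-group SD of log2 CPM (log axis) against mean log2 CPM over the 6 libraries, with each grey point a tested gene and the immediate early genes in purple. Egr1, at an SD of 0.79, lies near the upper edge at its level, Fos above the middle, and Fosb at the lower edge.

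Fos encodes the c-Fos subunit of AP-1, which binds DNA only as a dimer with a Jun protein. It lies on chromosome 6 from 105121170 to 105124036. Its levels were 9.09, 6.78 and 10.1 CPM in DMP 30, 31 and 33, against 8.23, 6.86 and 8.50 CPM in saline 30, 31 and 33. As with Egr1, the libraries numbered 31 were the lowest of each group, and the groups overlapped. It differed by 0.14 on the log2 scale (SE 0.16, 95% interval -0.21 to 0.49, edgeR adjusted p = 0.9998), or a fold between 0.864 and 1.405. The within-group SD of 0.24 in log2 CPM was above that of 87.8% of the 3772 genes of similar level, so Fos was the second of the 9 in that order.

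Fosb, the paralog whose splice form ΔFosB outlasts the stimulus in brain, lies on chromosome 1 from 78954312 to 78961492. It had 1.91, 1.60 and 1.62 CPM in DMP 30, 31 and 33, against 1.89, 1.70 and 1.73 CPM in saline 30, 31 and 33. These values were unusually even for so low a level, and only 2.94% of 2656 genes of similar level had a smaller SD. DMP and saline differed by a log2 fold change of -0.05 (SE 0.21, edgeR adjusted p = 0.9998). LOC103691049 overlaps Fosb on the opposite strand, and whether counting used strand is not given, so reads of this pair may not be separated.

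Jun encodes c-Jun, the partner of the Fos proteins and a target of JNK kinases in injured neurons. It lies on chromosome 5 from 109894175 to 109897268. Its levels were 37.3, 31.7 and 30.7 CPM in DMP 30, 31 and 33, against 34.6, 37.1 and 34.8 CPM in saline 30, 31 and 33. The saline values were tight, and DMP 30 exceeded them while DMP 31 and 33 lay below. The log2 fold change was -0.10 (SE 0.08, 95% interval -0.28 to 0.09, edgeR adjusted p = 0.9998), so that a change of Jun beyond a fold of 0.824 or 1.06 lay outside the interval. Saline 31, the lowest library for Egr1, was the highest saline library for Jun.

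Junb, an AP-1 subunit that can restrain c-Jun, lies on chromosome 19 from 23176265 to 23178049. It had 12.2, 12.3 and 12.5 CPM in DMP 30, 31 and 33, against 12.1, 10.7 and 12.5 CPM in saline 30, 31 and 33. The 3 DMP libraries differed from one another by less than 2%, with a CV of 0.925%, and saline 31 was the lowest of all 6. Its log2 fold change was 0.07 (SE 0.10, edgeR adjusted p = 0.9998), with a fold between 0.901 and 1.22.

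**Figure D3:**
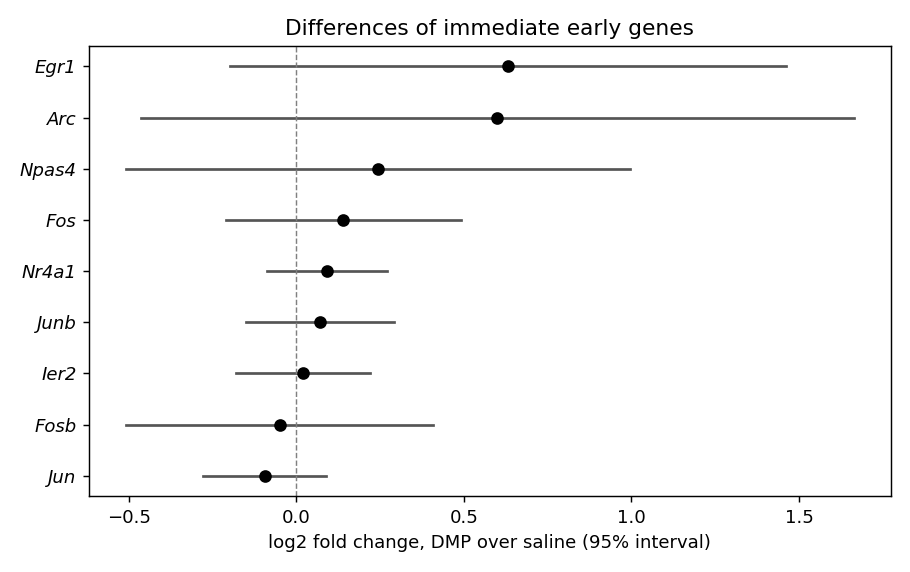
The log2 fold change of each immediate early gene, DMP over saline (point), with its 95% interval from the edgeR fit (line). Every interval crosses 0, and those of Jun, Ier2, Nr4a1 and Junb are the narrowest.

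Nr4a1, an orphan nuclear receptor also called Nur77, lies on chromosome 7 from 132368399 to 132389300. Its levels were 21.6, 22.3 and 19.6 CPM in DMP 30, 31 and 33, against 20.7, 19.5 and 19.3 CPM in saline 30, 31 and 33. The groups overlapped, and the log2 fold change was 0.09 (SE 0.08, 95% interval -0.09 to 0.27, edgeR adjusted p = 0.9998). Ier2, a small nuclear protein induced by growth factors, lies on chromosome 19 from 23494551 to 23496075. It had 21.2, 19.7 and 23.7 CPM in DMP 30, 31 and 33, against 22.8, 21.0 and 20.0 CPM in saline 30, 31 and 33. Its log2 fold change was 0.02 (SE 0.09, 95% interval -0.18 to 0.22, edgeR adjusted p = 0.9998), and the sign turned to -0.02 without saline 33 and to -0.06 without DMP 33. For both genes a fold above 1.21 lay outside the interval.

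Arc and Npas4 are tied most closely to neuronal activity. Arc encodes a synaptic protein that regulates AMPA receptor uptake, and Npas4 a transcription factor induced by calcium entry in neurons. Both were scarce here. Arc, on chromosome 7 from 106555968 to 106559697, had counts of 18, 26 and 56 in DMP 30, 31 and 33, against 26, 18 and 24 in saline 30, 31 and 33. Divided by 4, the count of 18 comes to 4.5, so a few fragments may decide these values. DMP 33 alone lay apart, at 1.09 CPM, and the other 5 libraries had 0.336 to 0.547 CPM. The log2 fold change of 0.60 (SE 0.48, 95% interval -0.47 to 1.66, edgeR adjusted p = 0.9998) became 0.02 without DMP 33. Npas4, on chromosome 1 from 202281260 to 202298681, had 36, 53 and 47 counts in DMP 30, 31 and 33, against 28, 46 and 46 in saline 30, 31 and 33. Library 30 was the lowest of each group, where Egr1 was highest. For Npas4 the log2 fold change was 0.24 (SE 0.34, 95% interval -0.51 to 1.00, edgeR adjusted p = 0.9998). At this depth the interval reached a fold of 3.17 for Arc and of 1.99 for Npas4, so larger levels in DMP could not be told from equal ones within those bounds.

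Over the 9 genes, 7 fold changes were above 0 and 2 below, with a median of 0.09 on the log2 scale, against a median of 0.00 over all genes tested, of which 50% were above 0. At an unadjusted edgeR p under 0.05 there were 0 of 9, where 4.64% of all genes lay. DESeq2 and limma-voom also called 0 of 9, where over all genes they called 92 of 18568 and 4 of 18571. With so few calls, 0 of 9 does not set these genes apart. The groups overlapped for all 9, and they did not for 9.3% of all genes. A single library was not low throughout. Number 31 was the lowest in both groups for Fos, Fosb and Egr1, number 30 for Npas4 and number 33 for Nr4a1, and for the other 4 the lowest libraries had different numbers. Of all genes tested, 10.8% were lowest in both libraries numbered 31. Bipolar cell markers summed to 1555 CPM in DMP 31, against 1597 to 1603 in the other DMP libraries, and to 1521 CPM in saline 31, against 1627.6 to 1665.2 in the other saline libraries. Amacrine markers were likewise lowest in number 31, at 1058 CPM in DMP and 1110 CPM in saline, and so were pigment epithelium and melanocyte markers. Other lists had another order. Rod and cone markers (55740 CPM in DMP, 55973 in saline) and ganglion cell markers (851 and 841 CPM) were lowest in number 33. Horizontal cell markers were highest in DMP 31 within that group but lowest in saline 31 (90.9 CPM) within the other. Muller glia markers were lowest in DMP 30 and saline 33. The bipolar and amacrine gaps were much smaller than those of Egr1, and the part of any list in the Egr1 values was not tested.

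**Figure D4:**
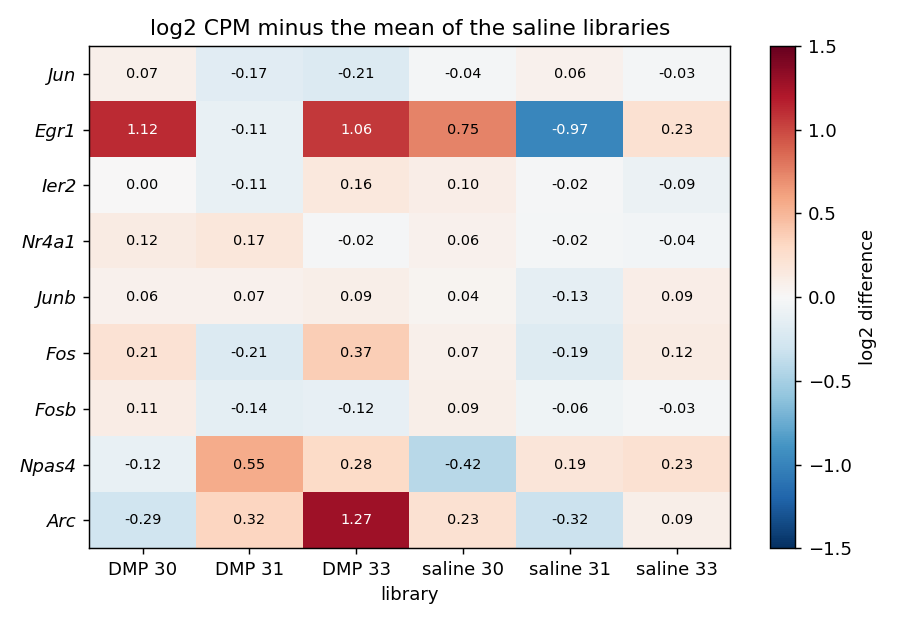
Difference of log2 CPM from the mean of the saline libraries for each immediate early gene (rows) in each library (columns), DMP at the left, with the value in each cell. Egr1 ranges from -0.97 in saline 31 to 1.12 in DMP 30, and Arc in DMP 33 is at 1.27.

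Levels can be compared between genes only per length, on the FPKM scale of the authors. Ier2 (17.6 FPKM over all 6 libraries), Jun (17.4) and Egr1 (17.2) had the highest mean levels and overlapped. Junb (6.49 FPKM) and Fos (4.70) followed, and Nr4a1 was at 3.37 FPKM. Junb was above Fos within every library, and their ranges met only across libraries (Fos 5.81 in DMP 33, Junb 5.74 in saline 31). Fosb (0.436 FPKM) and Npas4 (0.422) did not differ beyond their spread. Arc was the lowest, at 0.0486 FPKM. Its mean CPM was 11.3 times its mean FPKM, where this ratio was 1.21 to 6.08 for the other 8. The ratio stands roughly for a length in kb, yet the whole Arc gene spans 3.73 kb. The length behind its FPKM value is thus too long for the gene, and the value appears too low to compare with the others.

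The 9 genes did not share 1 pattern over the libraries. Their standardized log2 CPM profiles were averaged, and Pearson's r with this mean over 6 libraries was 0.996 for Egr1, 0.86 for Fos, 0.76 for Junb, 0.57 for Ier2, 0.49 for Arc, 0.36 for Fosb and 0.22 for Nr4a1, but -0.29 for Jun and -0.37 for Npas4. The mean profile thus followed Egr1, which is itself part of it. The other genes closest to this mean were Gprin1, Bst1, Zbtb22, Tnfaip3, Frmpd4 and Sox2, with r between 0.97 for Sox2 and 0.999 for Gprin1. With 6 points and 18571 genes such values are a description only. Their amplitude was small. Gprin1 had 50.2, 46.6 and 50.5 CPM in DMP 30, 31 and 33, against 48.8, 43.6 and 47.3 CPM in saline 30, 31 and 33, a range of 1.16-fold where that of Egr1 was 4.29-fold. Only 1 of the 6, Gprin1, was also among the 6 most alike once group means were subtracted.

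The wider network was described through 103 further genes in 5 lists, of which 99 could be tested. In edgeR 0 of 99 passed the threshold, and 3 of 99 (3.03%) were at an unadjusted p under 0.05, beside 4.64% of all genes. DESeq2 and limma-voom also called 0 of 99, where over all genes they called 92 of 18568 and 4 of 18571. The median log2 fold change of the 99 was 0.02.

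Of 12 further AP-1 and partner genes 10 were tested, with a median of 0.04. Jund, the AP-1 subunit that is present without stimulation, had 26.3, 16.6 and 27.7 CPM in DMP 30, 31 and 33, against 20.4, 21.1 and 23.1 CPM in saline 30, 31 and 33. DMP 31 was thus the lowest library for Jund, as for Fos. Atf7 (log2 fold change 0.10), Jdp2 (0.20) and Mafg (0.04) were the others of smallest p. For Atf7 the groups did not overlap (77.1 to 84.2 CPM in DMP, 74.1 to 75.3 CPM in saline). It did not pass either (edgeR adjusted p = 0.9998). Batf and Batf3 had at most 11 counts in any library and were not tested. Of 7 further Egr and NR4A genes 5 were tested. Nr4a2 averaged 6.29 ± 0.458 CPM in DMP and 6.66 ± 1.51 CPM in saline (SD, n = 3 each), and Nr4a3 1.12 ± 0.200 and 1.16 ± 0.086 CPM. The Egr corepressor gene Nab2, itself an Egr target, was at 12.7 ± 1.17 CPM in DMP and 11.9 ± 0.703 CPM in saline, and Nab1 at 22.3 ± 1.92 and 23.4 ± 1.82 CPM. Egr2 and Egr4 were too low to test, with at most 16 counts. Egr3, picked after its values were seen, had 0.248, 0.211 and 1.15 CPM in DMP 30, 31 and 33, against 0.236, 0.410 and 0.519 CPM in saline 30, 31 and 33, so DMP 33 was its highest library, as for Arc.

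All 37 genes of the list of other activity and growth factor induced genes were tested, 20 above 0 and 17 below (median 0.01). Klf4, a Krüppel-like zinc finger factor, had 2.60, 2.08 and 2.68 CPM in DMP 30, 31 and 33, against 1.48, 1.92 and 1.64 CPM in saline 30, 31 and 33. Its groups did not overlap, but it did not pass (log2 fold change 0.55, SE 0.21, edgeR adjusted p = 0.865). Inhba, a subunit of activin, was at 2.84 ± 0.188 CPM in DMP and 3.75 ± 1.04 CPM in saline, with saline 31 the highest. Tiparp (log2 fold change 0.15) and Rgs2 (0.16) were next by p.

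The 18 feedback inhibitor genes had a median of 0.02, with 10 above 0 and 8 below. Their log2 fold changes ran from -0.19 to 1.64, the latter the highest of any list. Of the 18, 0 were at an unadjusted edgeR p under 0.05. Dusp1, the phosphatase that ends MAP kinase signalling and is itself an immediate early gene, had 25.9, 25.1 and 27.4 CPM in DMP 30, 31 and 33, against 23.3, 19.6 and 25.3 CPM in saline 30, 31 and 33. Its log2 fold change was 0.20 (SE 0.10, 95% interval -0.01 to 0.41, edgeR adjusted p = 0.9998). DMP 31 lay below saline 33, so the groups overlapped. Dusp8 (0.09), Dusp10 (-0.19) and Spry2 (-0.15) had the next smallest p. The 29 upstream kinases and factors had a median of 0.02. Mrtfa, a coactivator of serum response factor, averaged 24.1 ± 0.469 CPM in DMP and 27.2 ± 0.354 CPM in saline, with no overlap, but did not pass (log2 fold change -0.17, SE 0.07, edgeR adjusted p = 0.902). The ribosomal S6 kinase gene Rps6ka2 was at 135 ± 6.07 CPM in DMP and 120 ± 12.8 CPM in saline (edgeR adjusted p = 0.9998), and Map2k2 (log2 fold change -0.15) and Elk3 (0.28) followed.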

How the data were processed

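The authors' deposited table held whole-number values per gene, treated as rounded estimated counts, and a deposited table held FPKM values computed by the authors. Per the submitters' processing notes, reads were trimmed with cutadapt 1.9, checked with FastQC and assigned to build mRatBN7.2. The sources used here give neither the aligner nor the counting tool and its use of strand. Counts repeated beside FPKM differed for 0 genes. Per the labels' protocols, libraries were poly(A)-selected, stranded and PCR-amplified, and no molecular identifiers are mentioned. Intervals rest on a spread between libraries that edgeR estimates partly from other genes. They are therefore not the spread of each gene alone.

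Genes were kept by the default filter of edgeR (minimum count 10 scaled to library size, total 15). The quasi-likelihood test of edgeR 4.0.16 (two-sided) compared DMP with saline in R 4.3.3, with TMM factors and group as the only term, and p-values adjusted by Benjamini-Hochberg over all 18571 genes (threshold 0.05). CPM are TMM-scaled. The SE was derived from the log2 fold change and its F statistic, and gives the 95% intervals. Log2 CPM used a prior count of 2. The procedure was tested on simulated counts. Alternatives were DESeq2 1.42.0, limma-voom (limma 3.58.1), other filters, size factors and units, a replicate block and leaving out each library. Members and lists were chosen with earlier results of these data known. Named genes of each further list were the 4 of smallest p with a mean of at least 1 CPM, and the 6 genes most like the members. RefSeq promoters and chromosome names came from GRCr8, and positions of genes from the deposited table.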

Additional observations from a re-analysis of the deposited data

How the results depend on the processing

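Genes past the threshold over the whole table numbered 4 in edgeR. They numbered 92 with DESeq2, 13 with the stricter filter (1 CPM in at least 3 libraries), 35 with counts divided by 4, 1 with log2(FPKM + 0.1), 0 with log2(FPKM + 1) (984 at an unadjusted p under 0.05 in limma) and 0 to 81 with 1 library left out. Of these, 2 were called without saline 33, 9 without DMP 30, 0 without DMP 31 (834 at an unadjusted p under 0.05) and 81 without DMP 33. Of the 9 immediate early genes 0 passed in any of these fits. With 1 library left out, fold changes on the log2 scale ran from -0.057 to 0.078 for Ier2, 0.28 to 1.04 for Egr1 and 0.02 to 0.91 for Arc, and signs turned for Jdp2 (-0.031 to 0.33), Jund (-0.0046 to 0.33), Nr4a2 (-0.24 to 0.10) and Nr4a3 (-0.21 to 0.044). Their cause was not tested. The within-group SD of Arc was 0.23 on log2(FPKM + 0.1), against 0.59 on log2 CPM. All its FPKM values (0.0291 to 0.0980) were below the added 0.1, which flattens their spread. Without it the CV of Arc was alike in both units, at 61.0% in FPKM and 58.6% in CPM in DMP, and 21.2% and 20.8% in saline. Arc was not tested with the stricter filter or with counts divided by 4, nor Npas4 with the stricter filter.

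With the library number as a replicate block, 45 genes passed, among them 1 of the 9, Egr1 (log2 fold change 0.68, edgeR adjusted p = 0.0426). The ratio of DMP to saline CPM of Egr1 was 1.297, 1.82 and 1.78 within numbers 30, 31 and 33. The numbers were not taken to pair the samples. Deviations from group means correlated across genes at 0.066, 0.035 and 0.028 for the pairs 30, 31 and 33. All were under 0.1, a cutoff adopted for this report and not estimated from the data. Low correlations over all genes cannot show whether the numbers pair the samples. The other pairings ran from -0.079 to 0.046. The numbers 30 and 33 held the best match of DMP 30 and of DMP 33, and 31 that of saline 31, while DMP 31 correlated best with saline 33 (0.046). What the numbers mark is not given. Low counts limit Arc and Npas4.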
